A study of Mus musculus with 1 sample.

Results

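The semaphorins, plexins and neuropilins were examined in sc-RNA Seq of the newborn mouse cortex. They were chosen by gene symbol and comprise 31 of the 51912 genes listed, namely 20 semaphorins, 9 plexins and 2 neuropilins, and a row was found for each of the 31. The data were 1 WT library, made from the cerebral cortex of C57BL/6 mice at P0, the day of birth, after papain digestion and with the 10x Chromium 3′ chemistry. The title of the library speaks of telencephalic tissue and its source of cerebral cortex. The series also names SERPINA3f/+;Nestin-Cre mice, in which Nestin-Cre switches on human SERPINA3 in neural progenitors and their progeny, and these mice were not analysed here. With 1 library there is no replicate error and no test, cells are not replicates, and the intervals in brackets are 95% intervals that cover counting error only.

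Semaphorins are guidance cues that are secreted (class 3), span the membrane (classes 4 to 6) or are held by a lipid anchor (Sema7a). Plexins are the receptors that carry the signal into the cell, where they act on small GTPases and the cytoskeleton, and neuropilins are co-receptors that bind the secreted class 3 ligands and pair with A-type plexins. In the developing cortex this family is known for steering migrating neurons, axons and dendrites, and some of its members also act in glia and vessels.

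The library held 90346034 UMIs in 11062 cells, each with its own barcode, with a median of 7196.5 UMIs (quartiles 2452 and 11165.5). Cells with at least 2000 UMIs and 200 genes were kept (8631 cells), and 4037 of them fell into 1 of 17 gates. A gate is a group of cells defined by UMIs of marker genes, none of which belongs to the family, and its name ends in "-like" because it rests on markers alone. The neuronal gates comprised 196 newborn excitatory neuron-like cells (Eomes), 1015 young upper-layer neuron-like cells (layer II/III markers with high Igfbpl1), 536 layer II/III, 392 layer IV, 126 layer V, 861 layer VI and 34 layer VIb neuron-like cells, 160 Lhx6/Sst and 143 Adarb2/Prox1 interneuron-like cells and 23 striatal-type inhibitory neuron-like cells. The progenitor and glial gates comprised 57 dividing progenitor-like cells, 208 radial glia or astrocyte-like cells, 137 oligodendrocyte precursor-like cells and 86 cells with Olig1 and Olig2 but no Pdgfra. Cajal-Retzius (29 cells), mural (21 cells) and endothelial cell-like gates (13 cells) are small, and their values rest on few UMIs. Levels are counts scaled to a total of 1000000 UMIs (CPM), summed over the cells of a gate without mitochondrial genes. A gene is called higher or lower at 2-fold or more, with at least 10 CPM on the higher side. Layer gates were compared with the other layer gates together and the rest with all other gated cells.

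The gates differ in depth and in the share of likely doublets, and both are given here since they touch the results. The median depth ran from 4579 UMIs in the Adarb2/Prox1 gate to 20205 in the layer VIb gate. Scrublet marked 14.3% of newborn, 11.8% of layer VI, 10.2% of oligodendrocyte precursor-like and 9.30% of Olig-positive cells as doublets, against 0% of radial glia or astrocyte-like and 0.788% of young upper-layer cells. Gate borders are not sharp: 412 cells lay exactly at the limit of 6 layer VI markers and 308 lay 1 marker below it, while 1314 cells lay exactly at the limit of 5 layer II/III markers. A young upper-layer cell held a median of 1 layer V and 1 layer VI marker, and a layer VI cell a median of 4 layer V markers. Of the 10 genes that ranked highest in the layer V gate, 1 was a layer V marker. Of those in the layer II/III gate, 1 was a layer VIb marker, beside markers of its own list. The layer VIb markers together were at 279 CPM in the layer II/III gate, 58.3 CPM in layer VI and 712 CPM in layer VIb. Among the layer gates, the layer V markers together were highest in layer V, at 2184 CPM against 1323 CPM in layer VI.

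Of the 31 members, 28 were detected in at least 1% of the gated cells, as were 14952 genes in all. The other members were Sema3b with 39 UMIs in the whole library, Sema3g with 12 and Plxnb3 with 4. Among gates with at least 50 cells, Sema3b was highest in the radial glia or astrocyte-like gate at 5.82 CPM. Sema3g passed 10 CPM only in the endothelial gate, with 2 UMIs. Levels of different genes are not ranked against each other here, because 3′ counts of UMIs depend on each transcript.

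**Figure D1:**
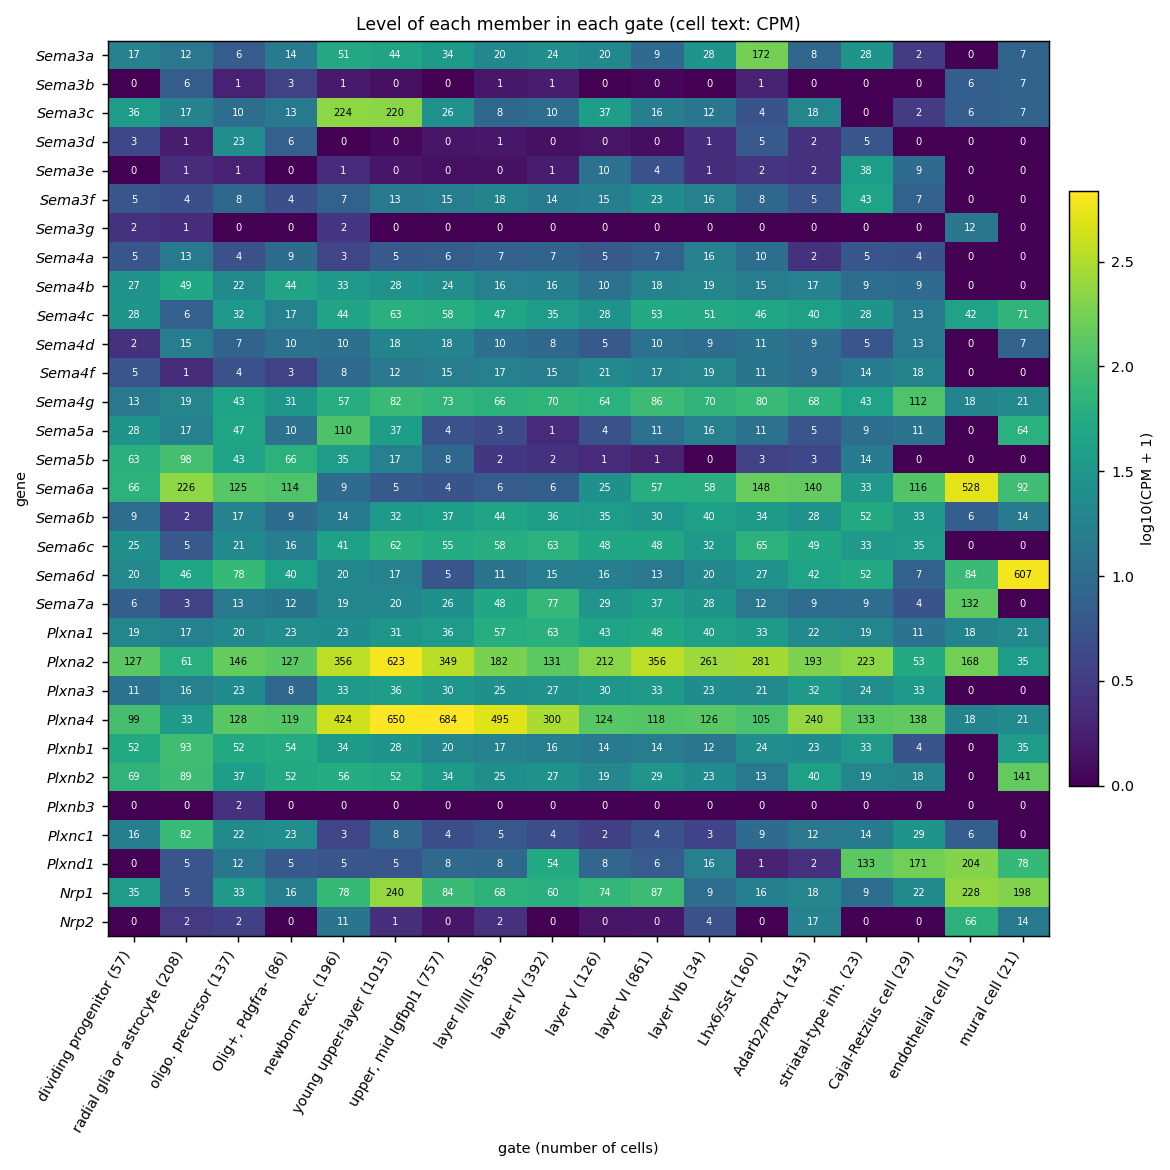
Level of each of the 31 genes (rows) in each gate (columns, with the number of cells); the number printed in a cell is its CPM and the colour its log10(CPM + 1). The column of upper-layer cells with an intermediate Igfbpl1 level belongs to no gate. Plxna2 is brightest in the young upper-layer gate, at 623 CPM, Plxna4 in that intermediate column and the young upper-layer gate, at 684 and 650 CPM, and Sema6d in the mural gate, at 607 CPM.

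Promoter sequences are shown for members that were highest in a gate among gates with at least 50 cells. They are Nrp1 (young upper-layer), Sema3a (Lhx6/Sst), Plxnc1 (radial glia or astrocyte) and Plxnd1 (layer IV), each as the 250 bases before the RefSeq start on GRCm38.p6. In the small endothelial gate Plxnd1 was higher, at 204 CPM, and the Nrp1 interval overlapped that of the young upper-layer gate. For Sema3c, the ligand of the newborn gates, 30 bases are shown, since its whole window lies in an exon of another annotated transcript of the gene. They were matched by symbol, and no coordinate comes from the deposited counts. The table held a promoter for 26 of the 31 members, and Sema3b, Sema3f, Sema6a, Plxna1 and Plxna4 had none. Capitals mark CAGATG, an E-box that Neurog and Neurod proteins can bind, and TGGGAA, the core bound by Rbpj, each searched on both strands (the other strand reads CATCTG or TTCCCA). The motifs do not overlap each other.
Nrp1 (chr8:128358823-128359072, + strand): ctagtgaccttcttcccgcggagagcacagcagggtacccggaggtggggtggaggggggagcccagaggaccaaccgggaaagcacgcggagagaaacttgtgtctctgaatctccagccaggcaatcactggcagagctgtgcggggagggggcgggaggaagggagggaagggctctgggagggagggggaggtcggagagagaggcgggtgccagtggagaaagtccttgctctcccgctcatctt
Sema3a (chr5:13396534-13396783, + strand): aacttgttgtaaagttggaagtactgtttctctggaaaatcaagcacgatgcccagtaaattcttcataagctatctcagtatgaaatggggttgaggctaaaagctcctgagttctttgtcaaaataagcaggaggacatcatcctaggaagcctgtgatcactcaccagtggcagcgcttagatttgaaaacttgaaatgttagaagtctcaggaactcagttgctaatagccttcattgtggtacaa
Plxnc1 (chr10:94944846-94945095, - strand): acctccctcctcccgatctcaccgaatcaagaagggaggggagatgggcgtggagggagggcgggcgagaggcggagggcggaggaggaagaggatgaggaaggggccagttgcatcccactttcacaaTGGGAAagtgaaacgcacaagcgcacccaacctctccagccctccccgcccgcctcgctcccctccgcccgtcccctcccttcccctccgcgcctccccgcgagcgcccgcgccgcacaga
Plxnd1 (chr6:115995006-115995255, - strand): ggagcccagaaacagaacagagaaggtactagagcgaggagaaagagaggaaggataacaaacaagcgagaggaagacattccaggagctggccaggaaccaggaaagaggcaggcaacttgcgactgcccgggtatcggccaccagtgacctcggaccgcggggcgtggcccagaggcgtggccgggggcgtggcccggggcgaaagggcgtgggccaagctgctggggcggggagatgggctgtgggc
Sema3c (chr5:17574604-17574633, + strand): cggcggcccgtgCAGATGcggcgggccacg
The first base of CAGATG stands 200 bases before the Sema3c start, and the first base of TGGGAA 121 bases before the Plxnc1 start. The windows of Nrp1, Sema3a and Plxnd1 hold neither. CAGATG or its reverse occurs in 14.4% of all 32851 promoters in the table and in 2 of the 37 of the members, belonging to Sema3c and Sema4a. TGGGAA or its reverse occurs in 21.6% of all promoters and in 6 of the 37, belonging to Plxnb2, Plxnc1, Sema4a, Sema4d, Sema5a and Sema6d. A match is a string of letters, not a measured site. The Sema3a window stands apart in base composition, with 40.8% G and C against 64.4% for Nrp1, 64.8% for Plxnd1, 68.8% for Plxnc1 and 78.4% for the whole Sema3c window.

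To explore which members set newborn excitatory neuron-like cells apart, the Eomes gate and the young upper-layer gate were each compared with all other gated cells. The Eomes gate required no excitatory neuron marker, and outside the family Eomes and Neurog2 ranked highest in it. A cell of the Eomes gate held a median of 3 excitatory neuron and 2 radial glia or astrocyte markers. The part of intermediate progenitors in the Eomes gate was not tested. In the Eomes gate 5 of 28 members were higher, namely Sema5a, Nrp2, Sema3c, Sema5b and Sema3a, where 4.33% of all genes were higher. In the young upper-layer gate 5 of 28 were higher, namely Sema3c, Nrp1, Plxna4, Plxna2 and Sema5a, where 1.82% of all genes were. Over both gates together these were 8 members, against 5.54% of all genes. Sema3c and Sema5a are the members shared by both sets. The median ratio over the members was 0.891 in the Eomes gate and 1.21 in the young upper-layer gate, against 0.987 and 0.961 over all genes.

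Among the secreted ligands, Sema3c, which signals through neuropilins and A- or D-type plexins, was at 224 CPM (202 to 248) in the Eomes gate and 220 CPM (209 to 232) in the young upper-layer gate. The other gates with at least 50 cells lay between 4.38 CPM in the Lhx6/Sst gate and 37.4 CPM in layer V, so neither newborn gate overlapped them. The ratio to the reference cells was 4.69 (4.19 to 5.24) in the Eomes gate and 8.91 (8.17 to 9.72) in the young gate. The reference of each includes the other newborn gate, and against the unweighted mean of the other gates the Eomes ratio was 8.602. Without the cells that Scrublet marked, Sema3c in the Eomes gate was 288 CPM. At an equal 2000 UMIs per cell, 36.7% (29.98 to 43.9) of Eomes-gate cells and 29.2% (26.4 to 32.1) of young upper-layer cells had a Sema3c UMI. In the Lhx6/Sst gate, whose share was lowest among gates with at least 50 cells, it was 0.625% at that depth. Without thinning these were 68.4%, 49.0% and 2.50% of cells, and the gates had median depths of 7150, 6354 and 6426.5 UMIs.

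Sema5a, a membrane cue with thrombospondin repeats, was at 110 CPM (94.3 to 126) in the Eomes gate, 7.87 times its reference (6.62 to 9.32). Among gates with at least 50 cells, the next were the oligodendrocyte precursor-like gate at 46.9 CPM and the young upper-layer gate at 37.3 CPM, and layer IV had the lowest level, 1.23 CPM. The young upper-layer ratio, 2.59 (2.21 to 3.04), was 1.72 against the unweighted mean of the other gates and so no longer passed 2-fold. Sema5b, its close relative, was at 34.9 CPM (26.6 to 45.1) in the Eomes gate and 16.8 CPM in the young gate, and both lie below the 98.4 CPM of the radial glia or astrocyte-like gate. Its Eomes ratio of 3.04 was 1.79 against the unweighted mean of the other gates, and the call was lost. Sema3a, the prototype repellent of axons and a cue for radial migration, was at 50.9 CPM (40.7 to 62.9) in the Eomes gate and 44.5 CPM in the young gate, whose intervals overlap.

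Among the receptors, Nrp1, the neuropilin that binds Sema3a, was at 240 CPM (228 to 252) in the young upper-layer gate, 3.76 times its reference (3.52 to 4.02). Among gates with at least 50 cells, layer VI followed at 87.1 CPM and the Eomes gate at 78.1 CPM, while the radial glia or astrocyte-like gate was at 4.53 CPM. Plxna2 was at 623 CPM (603 to 642) in the young gate and 356 CPM in the Eomes gate, with ratios of 2.68 (2.58 to 2.79) and 1.23. Plxna4 was at 650 CPM (630 to 670) in the young gate and 424 CPM in the Eomes gate, with ratios of 2.87 (2.76 to 2.98) and 1.48. Both are A-type plexins that bind Sema6a and, with neuropilins, class 3 semaphorins. Neither passed 2-fold in the Eomes gate. Nrp2, the second neuropilin, had only 19 UMIs in 16 Eomes-gate cells, or 11.2 CPM (6.77 to 17.6), and its call there was lost against the unweighted mean of the other gates, with a ratio of 1.65.

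Among the members lower in these gates, Sema6a was at 8.88 CPM in the Eomes gate and 5.28 CPM in the young gate, against 226 CPM in the radial glia or astrocyte-like gate and 66.0 CPM in the dividing gate. Sema3f, a repellent that acts through Nrp2, and Sema6b were below their references by 2-fold in the Eomes gate, where 4 of 28 members were lower against 6.17% of all genes. The other members were Sema6a and Plxnd1, and both were also lower in the young gate, where these 2 of 28 stood against 6.77% of all genes. The 4 members lower in 1 or both gates stood against 9.23%. Without the Scrublet-marked cells the ratio of Plxnd1 was 0.0491 in place of 0.280 and that of Sema3f 0.168 in place of 0.421, and the number of members lower in 1 or both newborn gates was 7 in place of 4, against 12% of all genes in that setting.

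**Figure D2:**
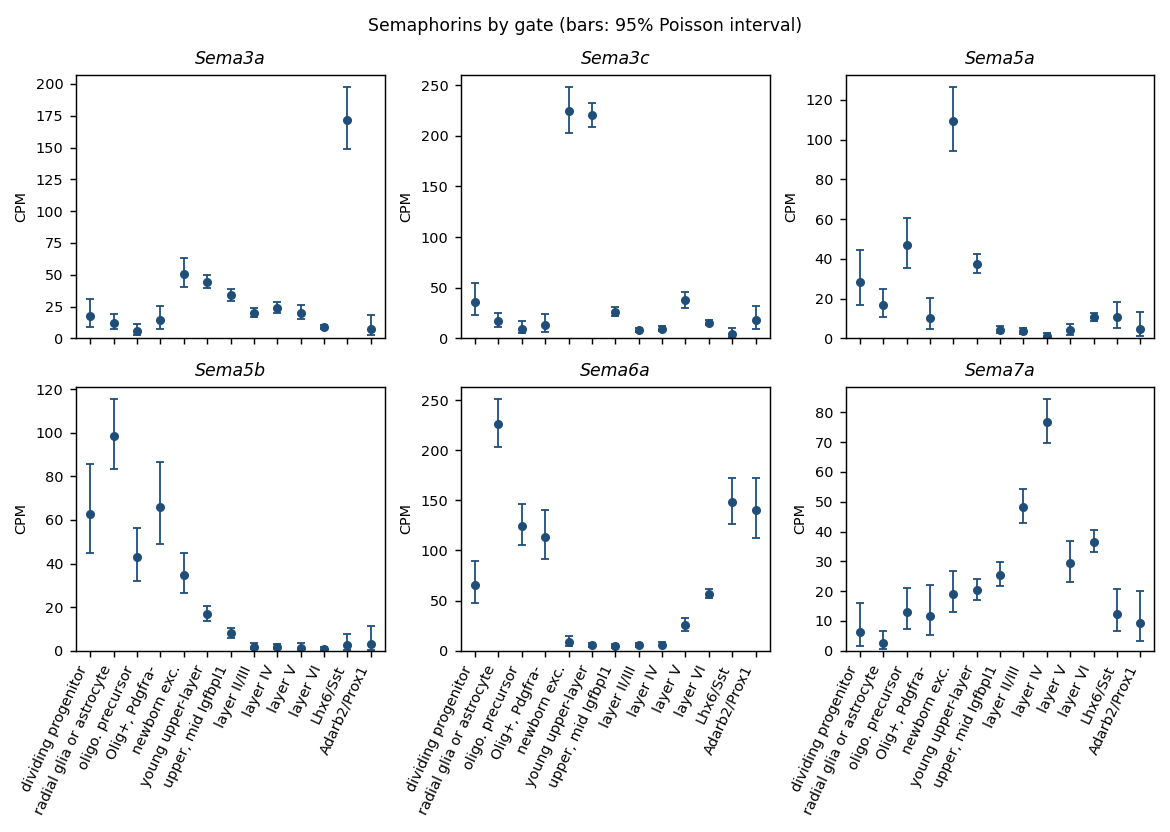
CPM (vertical axes, linear from 0) of 6 semaphorins in the gates with at least 50 cells and in upper-layer cells with an intermediate Igfbpl1 level; points are levels and bars 95% Poisson intervals. Sema3c stands at 224 and 220 CPM in the Eomes and young upper-layer gates, Sema3a at 172 CPM in the Lhx6/Sst gate, and Sema7a at 76.8 CPM in layer IV.

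To follow these members within the upper layers, the 2308 cells with layer II/III markers were ordered by their Igfbpl1 level per 10000 UMIs. Igfbpl1 is a gene of immature neurons. Sstr2, another one that was not used for the order, went from 6.404 CPM below 5 Igfbpl1 UMIs per 10000 to 189 CPM at 30 or more. Eomes, which defines the other newborn gate, went from 0.346 to 33.5 CPM between the same classes. The part of cells with Eomes in the levels that follow was not tested. Sema3c was at 7.96, 12.6, 44.2, 88.8, 215 and 392 CPM from the lowest to the highest of 6 Igfbpl1 classes. Plxna2 was at 182, 292, 423, 569, 619 and 694 CPM. Both levels were higher in each class than in the class before. The lowest class is the layer II/III gate, and the classes at 15 or more make up the young upper-layer gate. The order thus restates in part the levels by which these members were picked. The intervals of neighbouring classes overlapped only in the first step of Sema3c and in the step of Plxna2 from 569 (537 to 603) to 619 CPM (589 to 651).

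Nrp1 was at 67.9, 67.6, 105, 163, 256 and 310 CPM, level over the lowest pair of classes and higher with each step after it. Sema5a stayed between 3.37 and 5.11 CPM over the lowest 3 classes and was at 16.9, 27.5 and 77.3 CPM in the highest 3. Sema5b was at 1.90 CPM in the lowest and 22.8 CPM in the highest class. Plxna4 had another shape, with lower levels at both ends, 495 CPM (477 to 513) and 557 CPM (522 to 594), than in the middle of the range. Its highest level was 724 CPM (688 to 761.6) at 15 to 20 Igfbpl1 UMIs. That interval overlaps those of the classes before it, 668 CPM (641 to 695) at 5 to 10 and 705 CPM (674 to 737) at 10 to 15. The top is thus not located among these classes. Plxna1 and Sema7a ran the other way, from 57.1 to 31.7 CPM and from 48.3 to 23.4 CPM between the lowest and the highest class. The median depth of the classes went from 10916.5 to 5639 UMIs in the same order, and its part in these differences was not tested. Cux2, the gene of an upper-layer factor, was at 136 CPM in the lowest and 195 CPM in the highest class.

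**Figure D3:**
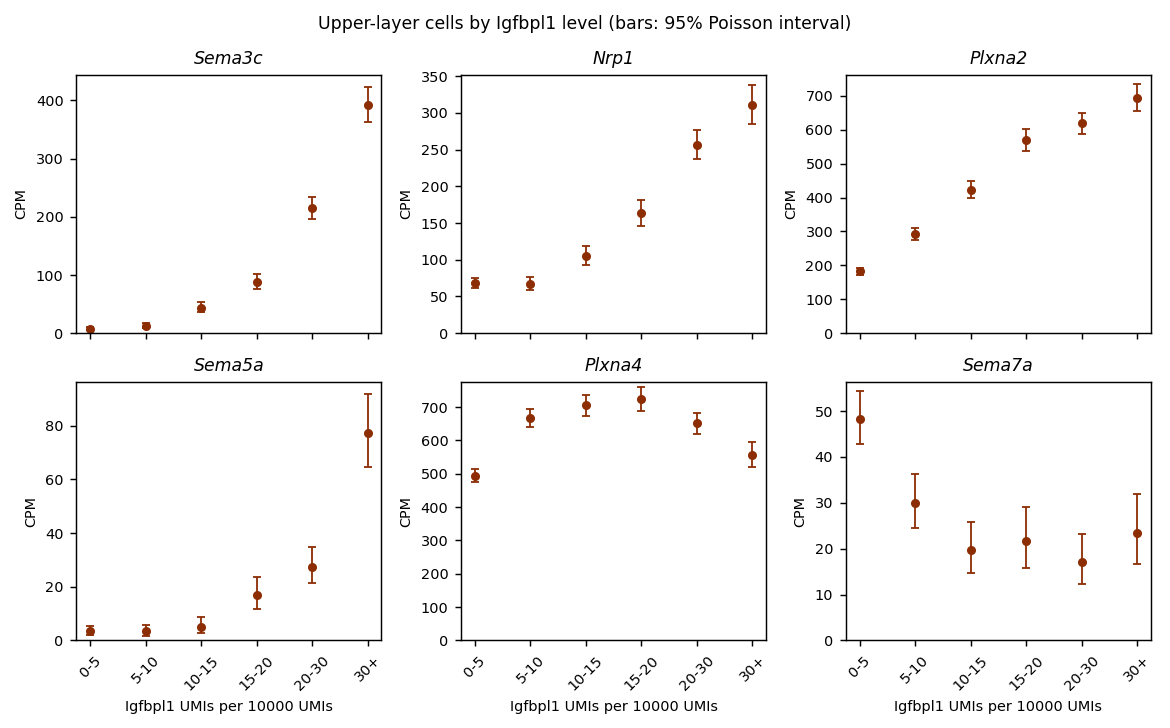
CPM (vertical axes, linear from 0) of 6 members in upper-layer cells grouped by Igfbpl1 UMIs per 10000 UMIs (horizontal axes); points are levels over all cells of a class and bars 95% Poisson intervals. Sema3c goes from 7.96 to 392 CPM, Plxna4 is higher in the middle classes, up to 724 CPM, than at both ends, and Sema7a goes from 48.3 to 23.4 CPM.

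A split of the Eomes gate by its median Igfbpl1 level, 98 cells on each side, gave higher Sema3c and Sema3a on the high side. Sema3c was at 360 CPM on the high side and 144 CPM on the low side (ratio 2.50, 2.03 to 3.09), and Sema3a at 82.9 and 32.0 CPM (ratio 2.59, 1.65 to 4.12). Without the Scrublet-marked cells these ratios were 1.52 (1.22 to 1.90) and 2.62 (1.52 to 4.69), so the size of the Sema3c difference depended on those cells. Other members that rose with Igfbpl1 in the upper layers differed here. Plxna2 had a ratio of 1.34 (1.13 to 1.57), Sema5a 1.29 (0.95 to 1.74), Nrp1 0.94 (0.64 to 1.35) and Sema5b 0.69 (0.37 to 1.23). Without the marked cells their ratios were 1.13, 0.90, 0.63 and 0.66 in the same order.

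To examine whether ligand and receptor UMIs fell in the same cells, pairs were counted after each cell had been thinned to 2000 UMIs. In the young upper-layer gate 135 of 1015 cells, or 13.3% (11.3 to 15.6), had UMIs of both Sema3c and Nrp1, where the product of the single shares gives 9.80%. Both genes were higher in the upper-layer cells with the most Igfbpl1, and the part of the Igfbpl1 level in this excess was not tested. The other pairs in this gate lay near the product: 22.1% against 23.3% for Nrp1 with Plxna4, 23.8% against 22.7% for Nrp1 with Plxna2, 48.1% against 47.0% for Plxna2 with Plxna4 and 18.3% against 20.3% for Sema3c with Plxna4. In layer VI, Sema6a and Plxna2 were found together in 6.62% (5.05 to 8.49) of cells against a product of 5.52%. These are descriptions of sparse counts.

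Next, the excitatory layers were compared with each other. The layer II/III gate holds only the upper-layer cells of the lowest Igfbpl1 class. The part of the Igfbpl1 level in the layer differences was not tested. Of the 28 members, 1 was higher in layer II/III (Plxna4), 1 in layer IV (Plxnd1), 2 in layer V (Sema3e and Sema3c), 3 in layer VI (Sema6a, Sema5a and Plxna2) and 2 in the small layer VIb gate (Sema5a and Sema4a). The shares of all genes that were higher were 0.809%, 1.24%, 1.05%, 2.18% and 3.58% in the same order. Lower were 3 members in layer II/III (Sema3c, Sema6a and Plxnd1), 2 in layer IV (Sema6a and Plxna2), 2 in layer V (Plxna4 and Plxnd1), 3 in layer VI (Sema3a, Plxna4 and Plxnd1) and 1 in layer VIb (Nrp1), where 1.91%, 2.04%, 1.65%, 1.99% and 4.26% of all genes were lower. At 2000 UMIs per cell the Plxnd1 ratio was 0.662 in place of 0.382 in layer II/III and 1.04 in place of 0.411 in layer V. Neither passed 2-fold there. At that depth only 1.31% of the 536 layer II/III and 2.38% of the 126 layer V cells had a Plxnd1 UMI. These ratios too cannot show whether the calls depend on depth. Over the 5 layers together 8 members were higher in at least 1 layer and 7 were lower in at least 1, against 7.98% and 8.23% of all genes. The median ratio of the members was 1.003, 0.914, 0.829, 1.02 and 0.919, against 0.972, 0.949, 0.921, 1.06 and 0.942 over all genes.

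Among the receptors, 3 plexins were higher in a layer. Plxnd1, the receptor of Sema3e, was at 53.7 CPM (47.8 to 60.02) in layer IV, 7.79 times the other layers (6.34 to 9.62). The other layer gates lay between 5.56 CPM in layer VI and 16.1 CPM in layer VIb, and at an equal depth of 2000 UMIs 5.36% (3.35 to 8.07) of layer IV cells had a UMI. No Plxnd1 UMI was found in the 57 dividing progenitor-like cells, which allows up to 4.72 CPM. Plxna4 was at 495 CPM in layer II/III and 300 CPM (286 to 315) in layer IV, against 124, 118 and 126 CPM in layers V, VI and VIb, whose intervals overlap. With stricter gates the ratio of layer V was 0.185 in place of 0.478. The ratio of layer II/III to the other layers was 2.86 (2.72 to 3.01). Plxna2 ran the other way between these gates, at 356 CPM (344 to 367) in layer VI, a ratio of 2.07 (1.97 to 2.18). It was at 182 CPM in layer II/III, 131 CPM in layer IV and 212 CPM in layer V. In the upper-layer cells of the higher Igfbpl1 classes, left out of the layer II/III gate, Plxna2 was at 292, 423, 569, 619 and 694 CPM. All but the first of these levels lie above that of layer VI. Plxna1 did not pass 2-fold in any layer and lay between 40.1 and 62.8 CPM. Nrp1 was between 59.8 and 87.1 CPM in layers II/III to VI and at 9.37 CPM (3.77 to 19.3) in layer VIb. In the upper-layer cells left out of the layer II/III gate it was at 67.6, 105, 163, 256 and 310 CPM. All but the first of these levels lie above those of the layer gates.

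The level of Plxna4 in layer VI was lower without likely doublets: 118 CPM with all cells and 69.1 CPM without those that Scrublet marked. Its ratio to the other layers was 0.350 and 0.205. At 2000 UMIs per cell, with the marked cells kept, that ratio was 0.197. When the layer VI gate was split at the median of Bcl11b, the gene of a factor of subcortical projection neurons, Plxna4 was at 70.7 CPM on the high side and 163 CPM on the low side (ratio 0.43, 0.38 to 0.49). Without the Scrublet-marked cells it was at 51.2 and 89.2 CPM. Sema5a was at 13.9 CPM on the high and 7.48 CPM on the low side (ratio 1.86, 1.25 to 2.82), and without the marked cells at 11.1 and 3.29 CPM (ratio 3.35, 1.79 to 6.74).

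Among the ligands, Sema6a, a membrane semaphorin that can also act as a receptor, was at 56.7 CPM (52.2 to 61.5) in layer VI and 57.5 CPM in layer VIb. It was at 25.3 CPM in layer V and 5.54 and 6.14 CPM in layers II/III and IV, so that layer V lay between the upper and the deepest layers. The layer VI ratio was 4.82 (4.07 to 5.75), and 2.40 against the unweighted mean of the other layers. Sema7a, the lipid-anchored member and ligand of Plxnc1 and of beta-1 integrin, was at 76.8 CPM (69.8 to 84.4) in layer IV. It followed at 48.3 CPM in layer II/III, 36.6 CPM in layer VI and 29.4 CPM in layer V, and its layer IV ratio of 1.98 (1.75 to 2.23) was just short of 2-fold.

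Both members higher in layer V were secreted ligands. Sema3c was at 37.4 CPM (30.2 to 45.8) there, 3.12 times the other layers (2.44 to 3.96), with 15.5 CPM or less in the other layer gates. In the upper-layer cells of the higher Igfbpl1 classes, left out of the layer II/III gate, Sema3c was at 12.6, 44.2, 88.8, 215 and 392 CPM. All but the first of these levels lie above that of layer V. Sema3e was at 10.5 CPM (6.83 to 15.3) in layer V from 26 UMIs, 4.74 times the other layers (2.83 to 7.76), and at 4.12 CPM in layer VI. The small striatal-type gate, in which Scrublet marked no cell, was at 37.9 CPM from 8 UMIs. The summed level of the 12 striatal-type markers was 666 CPM in the layer V gate, and 5 of the 12 had a UMI there. It was 1253 CPM in layer IV and 679 CPM in layer II/III, where Sema3e was at 0.701 and 0.346 CPM, and 294 CPM in layer VI. The part of striatal-type cells in the layer V level of Sema3e was not tested. With stricter gates the Sema3e ratio in layer V was 16.0, and at an equal 2000 UMIs per cell it was 9.66. Sema5a in layer VI was at only 10.6 CPM (8.75 to 12.8). Its ratio of 3.19 was 1.796 at that equal depth and 1.72 against the unweighted mean of the other layers. In the upper-layer cells left out of the layer II/III gate, Sema5a was at 3.37, 5.11, 16.9, 27.5 and 77.3 CPM. The levels from 16.9 CPM on lie above that of layer VI. Without the Scrublet-marked cells only the Bcl11b-high side of layer VI passed 10 CPM, at 11.1 CPM against 3.29 CPM on the low side.

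Of the other membrane ligands, Sema4g, Sema4c, Sema6c, Sema6b and Sema4f did not pass 2-fold in any layer, while Sema4a was at 16.1 CPM (8.30 to 28.0) from 12 UMIs in layer VIb, 2.43 times the other layers, and had no UMI there at 2000 UMIs per cell. Sema4g was at 64.4 to 86.0 CPM in the 5 layer gates, Sema4c at 27.8 to 53.5 CPM, Sema6c at 32.1 to 63.5 CPM and Sema6b at 30.2 to 44.1 CPM. Sema4f, at 14.7 to 20.9 CPM in layers II/III to VI, was at 1.29 CPM in the radial glia or astrocyte-like gate. Sema4a aside, each of these ligands was lower in that glial gate by 2-fold than in the other gated cells, and none was higher by 2-fold in a neuronal gate.

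**Figure D4:**
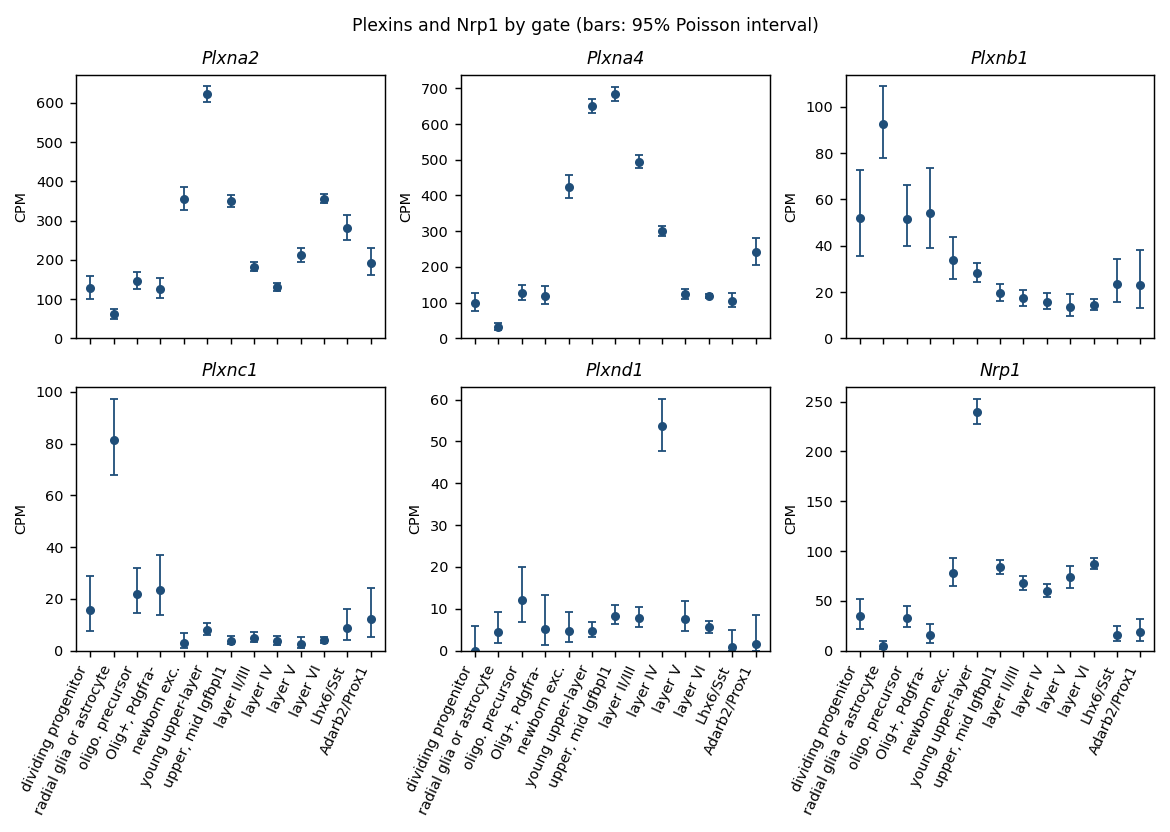
CPM (vertical axes, linear from 0) of 5 plexins and Nrp1 in the gates with at least 50 cells and in upper-layer cells with an intermediate Igfbpl1 level; points are levels and bars 95% Poisson intervals. Plxnd1 stands at 53.7 CPM in layer IV, Plxnc1 at 81.5 CPM in the radial glia or astrocyte-like gate, and Nrp1 at 240 CPM in the young upper-layer gate.

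To explore the inhibitory neurons, the Lhx6/Sst, Adarb2/Prox1 and striatal-type gates were compared with all other gated cells. In the Lhx6/Sst gate 2 of 28 members were higher (Sema3a and Sema6a), in the Adarb2/Prox1 gate 2 (Sema6a and Nrp2) and in the striatal-type gate 4 (Sema3e, Plxnd1, Sema3f and Sema6d), where 4.17%, 4.07% and 6.2% of all genes were higher. Lower were 7, 8 and 7 members in the same order, where 6.6%, 8.13% and 12.2% of all genes were lower. Over the 3 gates together 7 members were higher in at least 1 gate, against 12% of all genes, and 13 lower, against 18.1%. In the striatal-type gate, with 23 cells, the Sema3e ratio of 16.6 was 0 at 2000 UMIs per cell and 65.4 with stricter gates. The Sema6d ratio of 2.44 was 0 with stricter gates, 0.784 against the unweighted mean of the other gates and 6.05 at 2000 UMIs per cell. The median ratio of the members was 0.795, 0.820 and 0.718, against 0.935, 0.941 and 0.837 over all genes.

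Sema3a separated both interneuron gates. It was at 172 CPM (149 to 198) in the Lhx6/Sst gate, 7.96 times its reference (6.78 to 9.31), and at 7.71 CPM in the Adarb2/Prox1 gate, from 196 and 5 UMIs. The next gate was the Eomes gate at 50.9 CPM. At an equal depth 21.9% (15.7 to 29.1) of Lhx6/Sst cells had a Sema3a UMI, against 0% of oligodendrocyte precursor-like cells. Without thinning the shares were 45% and 4.38%, and the median depths of these gates were 6426.5 and 7677 UMIs. Sema6a was at 148 CPM (127 to 172) and 140 CPM (113 to 172) in the interneuron gates, which do not differ beyond their intervals. Its ratios of 3.40 and 3.11 were 1.48 and 1.39 against the unweighted mean of the other gates, which include the endothelial gate at 528 CPM. The 7 endothelial markers together were at 1.75 and 6.16 CPM in these interneuron gates.

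Nrp2, which marks interneurons avoiding the striatum in the embryo, had 11 UMIs in 10 of 143 Adarb2/Prox1 cells, or 17.0 CPM (8.46 to 30.3), and no UMI in the 160 Lhx6/Sst cells. That absence allows up to 2.63 CPM. Nrp1 was low in both, at 15.8 and 18.5 CPM. Plxna4 was at 240 CPM in the Adarb2/Prox1 gate and 105 CPM in the Lhx6/Sst gate, and Plxna2 at 193 and 281 CPM. In the striatal-type gate Plxnd1 was at 133 CPM (88.2 to 192) from 28 UMIs, 1 cell giving 21.4% of them.

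Both interneuron gates were uneven within themselves. In the Lhx6/Sst gate, 73 cells with an Sst UMI were compared with 87 without one. Sema3a was at 222 and 111 CPM (ratio 1.999, 1.46 to 2.77), Sema6a at 204 and 79.8 CPM (ratio 2.56, 1.79 to 3.73) and Plxna2 at 356 and 191 CPM (ratio 1.87, 1.46 to 2.39), all higher with Sst. Plxna4 was at 55.9 and 165 CPM (ratio 0.34, 0.22 to 0.51), Sema6c at 36.7 and 99.3 CPM (ratio 0.37, 0.22 to 0.62) and Sema4g at 52.7 and 113 CPM (ratio 0.47, 0.29 to 0.73), all lower with Sst. The median depth was 8234 UMIs with and 6061 without Sst. Leaving out the Scrublet-marked cells left each of these 6 ratios between 0.31 and 2.60, on the same side of 1.

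In the Adarb2/Prox1 gate, in which Scrublet marked no cell, 71 cells with a Prox1 UMI were compared with 72 without one, at median depths of 4509 and 4596 UMIs. Sema6a was at 218 CPM with and 61.9 CPM without Prox1 (ratio 3.52, 2.12 to 6.11). Sema6d was at 9.21 and 74.3 CPM (ratio 0.12, 0.02 to 0.41) and Plxnb2 at 15.4 and 64.98 CPM (ratio 0.24, 0.07 to 0.64), from 3 and 24 UMIs and from 5 and 21 UMIs. Plxna2 was at 135 and 251 CPM (ratio 0.54, 0.36 to 0.79). Plxna2 thus lay on opposite sides in the interneuron gates, higher in Sst cells and lower in Prox1 cells. The splits were made for 31 members in 6 gates, and those given were chosen by their values.

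**Figure D5:**
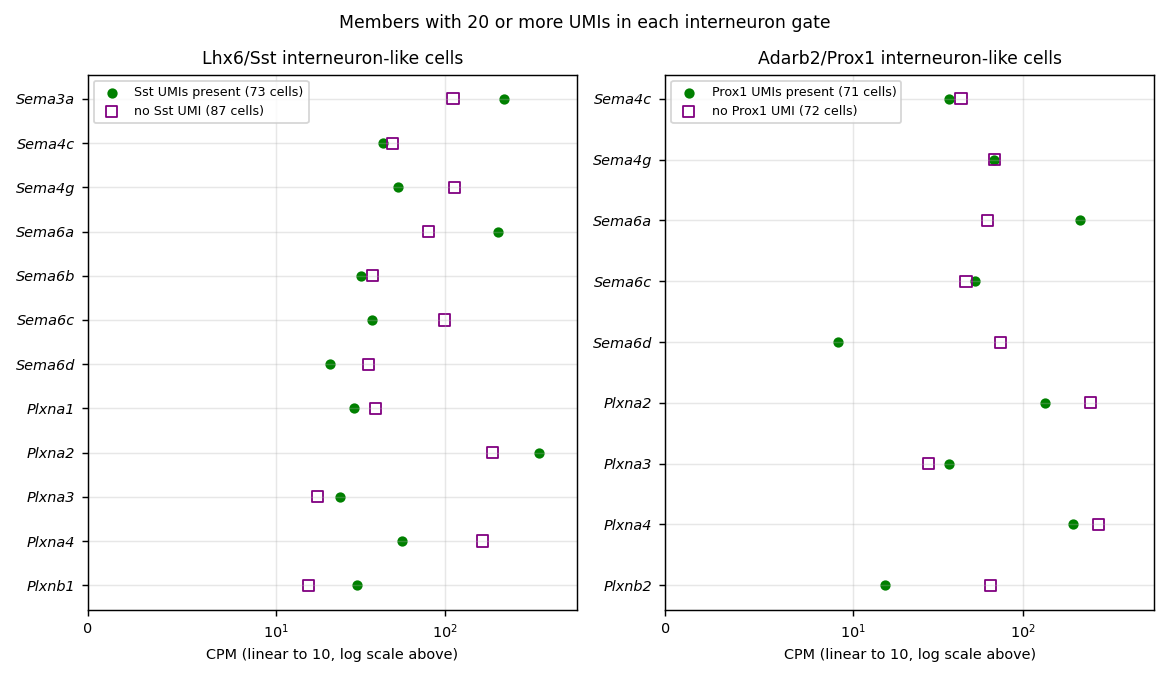
CPM (horizontal axes, linear to 10 and logarithmic above) of the members with 20 or more UMIs in the Lhx6/Sst (left) and Adarb2/Prox1 (right) gates; filled circles are cells with a UMI of Sst or Prox1 and open squares cells without one. Sema6a lies further right with the marker in both panels, at 204 against 79.8 CPM and at 218 against 61.9 CPM.

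Turning to progenitors and glia, 8 of 28 members were higher in the radial glia or astrocyte-like gate, where 14.9% of all genes were, and 14 were lower, where 14.0% were. The 8 were Plxnc1, Sema5b, Sema6a, Plxnb1, Plxnb2, Sema4b, Sema6d and Sema4a. In the dividing gate 2 were higher (Sema5b and Plxnb1, background 11.3%) and 12 lower (background 10.8%), in the oligodendrocyte precursor-like gate 7 were higher, Sema3d among them (background 7.71%) and 9 lower (background 7.14%), and in the Olig-positive, Pdgfra-negative gate 5 were higher (background 11.2%) and 13 lower (background 10.7%). Over both progenitor gates 8 members were higher in at least 1 and 16 lower, against 19.6% and 16.4% of all genes, and over the 3 glial gates 10 and 15, against 20.7% and 17.1%. Sema3d, counted in the 7 and in the 10, passed the limit of 1% of gated cells only through the precursor gate. The median ratio of the members was 0.459 in the radial glia or astrocyte-like gate and 0.470 in the dividing gate, against 0.929 and 0.9499 over all genes. It was 0.644 and 0.432 in the oligodendrocyte precursor-like and Olig-positive gates, against 0.990 and 0.968.

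Plxnc1, the receptor of Sema7a, was at 81.5 CPM (67.9 to 97.1) in the radial glia or astrocyte-like gate, 12.8 times its reference (10.3 to 15.9) and 8.18 times the unweighted mean of the other gates. Among gates with at least 50 cells, the Olig-positive and oligodendrocyte precursor-like gates followed at 23.3 and 21.8 CPM, and both were below 2-fold against that mean, with ratios of 1.71 and 1.59. With stricter gates the Olig-positive ratio was 1.69. The layer gates lay between 2.41 and 5.02 CPM. Its ligand Sema7a was at 2.59 CPM in the radial glia or astrocyte-like gate and 76.8 CPM in layer IV. At an equal depth a Plxnc1 UMI was found in 16.8% (12.01 to 22.6) of this glial gate, against 0% in layer IV. Without thinning it was found in 41.3% and 4.85% of cells, in gates with a median depth of 7417.5 and 14077 UMIs.

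Among gates with at least 50 cells, the B-type plexins Plxnb1 and Plxnb2, receptors of class 4 semaphorins, were also highest there. Plxnb1, the receptor of Sema4d, was at 92.5 CPM (78.0 to 109), 4.39 times its reference (3.65 to 5.25), against 51.9, 51.8 and 54.3 CPM in the dividing, oligodendrocyte precursor-like and Olig-positive gates, which do not differ beyond their intervals. Plxnb2 was at 89.3 CPM (75.02 to 106) and at 69.2 CPM in the dividing gate, whose intervals overlap, and at 13.2 CPM in the Lhx6/Sst gate. By contrast, the A-type plexins Plxna2 and Plxna4 had their lowest levels among gates with at least 50 cells there, at 60.8 and 33.0 CPM. At an equal depth the Plxnb1 ratio in the dividing gate was 0.927 in place of 2.22. In the oligodendrocyte precursor-like gate it was 1.44 in place of 2.26, so neither passed 2-fold. At that depth only 3.51% of the 57 dividing and 8.03% of the 137 precursor-like cells had a Plxnb1 UMI. These ratios therefore rest on few UMIs and cannot show whether the calls depend on depth.

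Among the ligands, Sema6a was at 226 CPM (203 to 251), 5.73 times its reference (5.08 to 6.44), and at 2.37 times the unweighted mean of the other gates. The 7 endothelial markers together were at 1.94 CPM in this gate. Sema5b was at 98.4 CPM (83.3 to 115), 10.9 times its reference (8.93 to 13.2) and 6.32 times the unweighted mean of the other gates, and its neighbours in order were the Olig-positive gate at 66.0 CPM (49.1 to 86.7) and the dividing gate at 62.9 CPM (44.9 to 85.6). Both of these intervals just overlap that of the radial glia or astrocyte-like gate. In the layers Sema5b lay at 1.90 CPM or less. Sema4b was at 49.2 CPM (38.7 to 61.6) and 44.0 CPM in the radial glia or astrocyte-like and Olig-positive gates. Among the 111 cells with Aqp4 or Gja1, markers of astrocytes, Sema6d was at 58.8 CPM, against 30.2 CPM in the 97 without them (ratio 1.95, 1.15 to 3.41). In the whole gate the Sema6d ratio was 2.23, and 0.687 against the unweighted mean of the other gates. The 6 mural markers together were at 232 CPM in this gate, from 3 of the 6, against 13503 CPM in the mural gate, and their part in the Sema6d level was not tested.

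In the oligodendrocyte precursor-like gate, Sema3d was at 23.5 CPM (15.7 to 33.7) from 29 UMIs in 19 of 137 cells, 33.7 times its reference (19.3 to 59.2), and the next gate was the Olig-positive gate at 6.47 CPM. Sema3d was found in 1.09% of all gated cells and in 0.641% of those outside the precursor gate, so it passed the limit of 1% only through the gate in which it was high, and its call there is a description. The ratio was 15.1 against the unweighted mean of the other gates, 53.3 with stricter gates and 56.7 at 2000 UMIs per cell. Sema6d, a ligand of Plxna1, was at 78.5 CPM (63.6 to 95.7), 3.98 times its reference, and 1.21 times the unweighted mean of the other gates, which include the mural gate at 607 CPM. The 6 mural markers together were at 4.05 CPM in the precursor gate and 45.3 CPM in the Olig-positive gate. Sema6a was at 125 CPM (106 to 146) there and 114 CPM in the Olig-positive gate. In the radial glia or astrocyte-like gate it was at 226 CPM. The precursor ratio of 2.82 was 1.22 against the unweighted mean. The Olig-positive ratio of 2.51 was 1.11 against that mean, 1.20 with stricter gates and 1.58 at 2000 UMIs per cell, so neither call held under that reference. Plxna4 in the precursor gate was at 128 CPM with all cells and 58.4 CPM without the Scrublet-marked ones.

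In the small vascular gates, Sema6a was at 528 CPM (424 to 651), Nrp1 at 228 CPM (161 to 313), Plxnd1 at 204 CPM (141 to 285) and Nrp2 at 66.0 CPM (33.0 to 118) in the 13 endothelial cell-like cells. Nrp1 is also a co-receptor of vascular growth factor, and Plxnd1 guides vessels. The 11 Nrp2 UMIs came from 5 cells, 1 of which gave 45.5% of them. In the 21 mural cells Sema6d was at 607 CPM (486 to 750), 31.2 times its reference (24.7 to 39.0) and 19.1 times the unweighted mean of the other gates, found in 90.5% of cells. In the 29 Cajal-Retzius cells Plxnd1 was at 171 CPM (135 to 213), in 86.2% of cells, and Sema6a at 116 CPM (87.1 to 152). Against that mean the Sema6a ratio in Cajal-Retzius cells was 1.14 in place of 2.54, and at 2000 UMIs per cell the Nrp1 ratio in endothelial cells was 1.13 in place of 2.52. In the endothelial, mural and Cajal-Retzius gates 6, 6 and 3 members were higher, against 16.0%, 14.7% and 7.94% of all genes, and 16, 14 and 14 were lower, against 24.9%, 21.3% and 11.5%.

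Of 41 further genes of the pathway, listed beside the members, 36 were detected in at least 1% of gated cells, and Kdr, Cd72, Timd2, Fes and Rhod were not. In the radial glia or astrocyte-like gate 6 of 36 were higher and 13 lower, where 14.9% and 14.0% of all genes were. In the Eomes gate 2 were higher and 5 lower (background 4.33% and 6.17%), and in the young upper-layer gate 2 and 8 (1.82% and 6.77%). In the Lhx6/Sst gate 2 were higher and 3 lower (4.17% and 6.6%), and in the Adarb2/Prox1 gate 2 and 4 (4.07% and 8.13%). In layers II/III to VI none was higher, and in layer VIb 1 was (Rnd1), where between 0.809% and 3.58% of all genes were higher in a layer. Lower were 2 in layer II/III (Dpysl4 and Mical1), 1 in layer V (Cntn2) and 1 in layer VIb (Mical2), where 1.91%, 1.65% and 4.26% of all genes were, and none in layers IV and VI. Rnd2, a small GTPase of migrating neurons, was at 327 CPM in the Eomes gate (ratio 10.4, 9.37 to 11.5) and 76.2 CPM in the young upper-layer gate. Its relative Rnd3 was at 269 CPM in the Lhx6/Sst gate (ratio 10.3, 8.999 to 11.7). Among other receptors, Erbb2, which can pair with B-type plexins, was at 25.2 CPM in the radial glia or astrocyte-like gate from 39 UMIs, and Itgb1, the integrin that Sema7a binds, at 296 CPM (ratio 3.79, 3.43 to 4.18). The cell adhesion genes differed between neurons, with Cntn2 at 480 CPM in the young upper-layer gate (ratio 4.13, 3.94 to 4.34) and Chl1 at 1016 CPM in the Lhx6/Sst gate (ratio 3.56, 3.35 to 3.78).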

How the data were processed

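Cerebral cortex of C57BL/6 WT mice at P0 was profiled as 1 10x Chromium library. The authors deposited raw UMI counts per gene and cell, with no normalization, and a table of UMI and gene counts per cell that equalled the column sums in all 11062 cells. The processing notes of the submitters name STAR, Cell Ranger 2, Seurat and mm9. The series' design text speaks of triplicates, and 1 library was analysed here.

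Cells with 200 genes and 2000 UMIs or more were gated on UMIs of marker genes from lists of 155. The listed fibroblast and ependymal markers, Slc17a6 and Slc17a7 entered no gate rule. Counts were summed per gate and scaled to CPM without mitochondrial genes, and ratios were taken for 14952 genes detected in 1% of gated cells. Exact Poisson, conditional and binomial (Clopper-Pearson) intervals at 95% cover counting error only. A count of 0 allows up to 3 counts, a fixed limit that is not the upper end of the exact interval. Doublets (382 cells, expected rate 6%, score limit 0.25) were marked by Scrublet in scanpy 1.11.5 and kept, with values without them as an alternative. The ratio code was tested on simulated data. Members with ratios of 2 or more and 10 CPM were described, largest first, and the others by range. Members, markers and pathway genes were chosen with earlier results of these data known. Symbols were used as deposited, and all 31 occur in GENCODE M21. Python 3.11.15, numpy 2.4.6, scipy 1.17.1 and pandas 2.3.3 were used. There was 1 group, so no comparison of genotypes was made.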

Additional observations from a re-analysis of the deposited data

How the results depend on the processing

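Of 11 alternatives, 2 were chosen after seeing the data. At a 3-fold limit the members higher were 5 in place of 8 in the newborn gates (2.19% of all genes), 5 in place of 8 in the layers (3.34%), 4 in place of 8 in progenitors (12.7%) and 6 in place of 10 in glia (13.1%). Both counts in glia include Sema3d, which passed the detection limit only through the precursor gate. Those lower were 2 in place of 4 in the newborn gates (5.18%), 3 in place of 7 in the layers (3.65%) and 8 in place of 13 in inhibitory neurons (10.8%). Members lower in the newborn gates were 7 with stricter gates (11.5% of all genes in that setting), 7 without Scrublet-marked cells (12%) and 8 at 2000 UMIs per cell (18%), where 12 were lower in the layers (32.7%). Of 1560 recomputed ratios, 1359 moved by less than their interval, 189 moved further and 12 changed sides of 1, while 198 moved by over 1.5 times and 98 were no longer past 2-fold. Of the 195 ratios in each alternative, the calls lost were 43 against the unweighted mean of the other gates, 32 at 2000 UMIs per cell, 17 with stricter gates, 3 with a higher UMI minimum, 2 without Scrublet-marked cells, 1 with a lower UMI minimum and 0 with mitochondrial genes counted or with cells over 10% mitochondrial UMIs left out. At 2000 UMIs per cell the ratios that changed sides of 1 were Plxnb1 in dividing cells (0.927), Plxnd1 in layer V (1.04), Sema3f (2.47), Sema4c (1.16) and Plxnc1 (0) in Cajal-Retzius cells, Sema4a in layer VIb (0), Sema3e in striatal-type cells (0) and Nrp2 in mural cells (0). With stricter gates they were Sema4d (2.20) and Sema6d (0) in striatal-type cells, and against the unweighted mean of the other gates Sema6d in radial glia or astrocyte-like (0.687) and striatal-type cells (0.784). The cause was not tested, and the small gates hold few UMIs. Thinning lowers the counts further, and the thinned ratios are given without intervals. A call lost at 2000 UMIs per cell therefore does not show that it depended on depth. No paired analysis was possible because the data hold a single library. In a single library, differences between animals cannot be told apart from differences between cells.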
